A study of Mus musculus with 20 samples.

Results

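Heat shock protein genes were followed in the hippocampus of mice that had received human small RNAs (sRNAs). The set holds 10 of the 25190 genes in the count table and was picked by gene symbol as known chaperones, with earlier results of these data known: Hspa1a, Hspa1b, Hspa8 and Hsph1 of the cytosolic HSP70 and HSP110 families, Hsp90aa1 and Hsp90ab1 of the HSP90 family, Dnajb1, Hspb1, Hspa5 and Hspd1. All 10 were protein-coding genes that had counts in each of the 20 libraries. RNA was sequenced from C57BL/6JOlaHsd wild-type males aged 4 months, with tissue dated 24 hours past the final behavioural test, in 4 groups of 5 mice. Every mouse carried cannulas for bilateral infusion into dorsal CA1. Vehicle mice were infused with artificial cerebrospinal fluid and Control mice with a pool of sRNAs from control individuals. Pool 1 and Pool 2 mice were each given sRNAs from a different cohort of patients with schizophrenia. Each group received 1 pool, so that the 5 mice repeat the infusion of a pool and not the making of it. Each pool was compared with Control to ask what goes with sRNAs from patients, and Control with Vehicle to ask what goes with human sRNAs as such.

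Heat shock proteins are molecular chaperones that bind unfolded or partly folded proteins. HSP70 proteins work with J proteins, which deliver substrates and stimulate ATP hydrolysis, and pass some substrates on to HSP90, whereas small heat shock proteins hold unfolded proteins without using ATP. Heat, proteotoxic stress and oxidative stress activate the transcription factor HSF1, which binds heat shock elements in the promoters of inducible members such as Hspa1a, Hspa1b, Hsph1, Dnajb1 and Hspb1. Hspa8 and Hsp90ab1 are instead the constitutive cytosolic forms and are abundant in neurons, Hspa5 (BiP) is the HSP70 of the endoplasmic reticulum and a target of the unfolded protein response, and Hspd1 is the mitochondrial chaperonin HSP60.

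The promoters of 5 members are shown because they matched short patterns of the elements through which these stress responses are known to act. Whether a match is bound or active was not tested. RefSeq promoter windows of build GRCm38.p6 matched 7 of the 10 members by symbol, and Hspa8, Hsp90aa1 and Hsp90ab1 had no entry there. The 250 bases before the RefSeq start of transcription are given 5′ to 3′ on the strand of the gene, from chr17:34972157-34972406 (minus strand) for Hspa1a, chr17:34959239-34959488 (minus) for Hspa1b, chr5:149636337-149636586 (minus) for Hsph1, chr5:135887669-135887918 (plus) for Hspb1 and chr2:34771840-34772089 (plus) for Hspa5. For Hsph1 and Hspa5 this start lies inside the gene of the count table, whose 5′ end is chr5:149636376 and chr2:34771970. Capitals mark matches to a heat shock element dyad in the first 4 and to the endoplasmic reticulum stress element in Hspa5.
Hspa1a: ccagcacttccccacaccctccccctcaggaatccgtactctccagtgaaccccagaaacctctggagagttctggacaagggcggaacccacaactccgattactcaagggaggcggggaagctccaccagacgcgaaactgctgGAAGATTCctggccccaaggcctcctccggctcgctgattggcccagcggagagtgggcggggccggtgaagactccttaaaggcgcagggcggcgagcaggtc
Hspa1b: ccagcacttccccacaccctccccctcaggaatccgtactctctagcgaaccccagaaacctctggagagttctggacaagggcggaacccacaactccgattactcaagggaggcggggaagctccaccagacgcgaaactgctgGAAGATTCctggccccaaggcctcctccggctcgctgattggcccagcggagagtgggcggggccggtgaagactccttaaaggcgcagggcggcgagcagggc
Hsph1: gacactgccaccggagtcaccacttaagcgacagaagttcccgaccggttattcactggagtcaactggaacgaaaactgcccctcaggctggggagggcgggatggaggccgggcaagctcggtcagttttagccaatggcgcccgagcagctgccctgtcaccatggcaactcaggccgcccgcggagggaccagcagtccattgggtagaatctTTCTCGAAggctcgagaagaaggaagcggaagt
Hspb1: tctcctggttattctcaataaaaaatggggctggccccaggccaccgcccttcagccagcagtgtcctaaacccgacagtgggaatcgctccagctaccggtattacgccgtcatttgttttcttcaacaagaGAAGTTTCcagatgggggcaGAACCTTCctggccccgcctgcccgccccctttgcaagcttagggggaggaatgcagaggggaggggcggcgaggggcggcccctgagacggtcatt
Hspa5: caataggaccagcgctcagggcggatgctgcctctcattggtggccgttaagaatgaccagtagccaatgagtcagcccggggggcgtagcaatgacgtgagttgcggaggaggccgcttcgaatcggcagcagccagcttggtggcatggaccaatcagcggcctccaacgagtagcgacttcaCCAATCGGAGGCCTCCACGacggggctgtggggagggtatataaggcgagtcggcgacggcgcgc

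The dyads searched were GAANNTTC and TTCNNGAA, on both strands. Over the same 250 upstream bases, the former stood in 6.69% and the latter in 7.17% of 32851 RefSeq promoters, and either of them in 12.8%. Hspa1a and Hspa1b each held 1 dyad that began 104 bases before the start, and their upstream sequences differed at 3 of 250 positions. Hspb1 held 2, beginning 117 and 97 bases before the start, and Hsph1 held 1, beginning 33 bases before it. No dyad of these letters was found in the windows of Dnajb1, Hspd1 and Hspa5. The stress element (CCAAT, 9 bases of any kind, CCACG) began 65 bases before the RefSeq start of Hspa5 and was held by 37 of the 32851 windows (0.113%). These matches describe the sequence only.

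Libraries held 20588280 to 25543939 counts, so that a count of 3 corresponded to 0.117 to 0.146 CPM (counts scaled to the size of the library). The 10 members together took 0.366% to 0.494% of the counts of a library. Some libraries stood apart in markers of other cells. Choroid plexus markers (6 of 6 detected) summed to 8941 CPM in Vehicle replicate 4 against 93.28 to 2287 CPM in the other libraries, and microglia markers (7 of 7) to 810.3 CPM in Pool 2 replicate 1 against at most 396.1 CPM elsewhere. All marker genes of the 10 cell type lists were detected, CA1 pyramidal neurons included, which summed to 481.0 to 1279 CPM. In whole tissue, fewer cells of a type and less RNA per cell cannot be told apart.

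Between genes, levels are compared per kilobase of exon (TPM). Hsp90ab1 was the most abundant member, with a mean of 2176 TPM over the 20 libraries, followed by Hspa8 with 800.9 TPM and Hsp90aa1 with 579.1 TPM. Hspa5, Hsph1 and Hspd1 came next, with 210.4, 171.4 and 154.2 TPM. Dnajb1 had 53.19 TPM, and the inducible genes Hspb1, Hspa1b and Hspa1a had 9.599, 8.987 and 6.938 TPM. The ranges of neighbours in this order were separate except between Hspa5 and Hsph1, Hsph1 and Hspd1, Hspb1 and Hspa1b, and Hspa1b and Hspa1a, which overlapped. Of the HSP70 genes, the constitutive Hspa8 was at 716.0 TPM or more in each library, and the stress-inducible Hspa1a at 9.003 TPM or less. Reads that fit several genes equally were left out of the counts, and TPM was not corrected for this. Of the 50-base windows of a member, 62.3% for Hspa1b, 60.3% for Hspa1a and 39.7% for Hspd1 also occurred in other genes, but 0% for Hspa5 and Hsph1. Levels of members with large shares can thus be too low, and the order of near neighbours is uncertain.

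Most heat shock protein genes differed little between the groups. A gene was counted as higher or lower when its log2 fold change was 0.3 or more in size and its unadjusted p in edgeR's quasi-likelihood test was under 0.05, which is the threshold used in the study. Against Control, Hspa5 was lower in Pool 1 mice and no other member passed (1 of 10 lower and 0 of 10 higher, beside 1.99% lower and 1.48% higher of all 25190 genes). No member passed in Pool 2 mice against Control (0 of 10, beside 1.01% lower and 5.2% higher of all genes) or in Control against Vehicle (0 of 10, beside 3.41% lower and 1.7% higher). Between the pools, Hspb1 was higher in Pool 2 (1 of 10 higher and 0 of 10 lower, beside 5.66% higher and 1.16% lower). No gene at all had an adjusted p under 0.05 in edgeR, the smallest Benjamini-Hochberg adjusted p being 0.421, 0.39, 0.734 and 0.0896 in the 4 comparisons in this order, while 1314, 1939, 1672 and 2146 genes had an unadjusted p under 0.05.

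**Figure D1:**
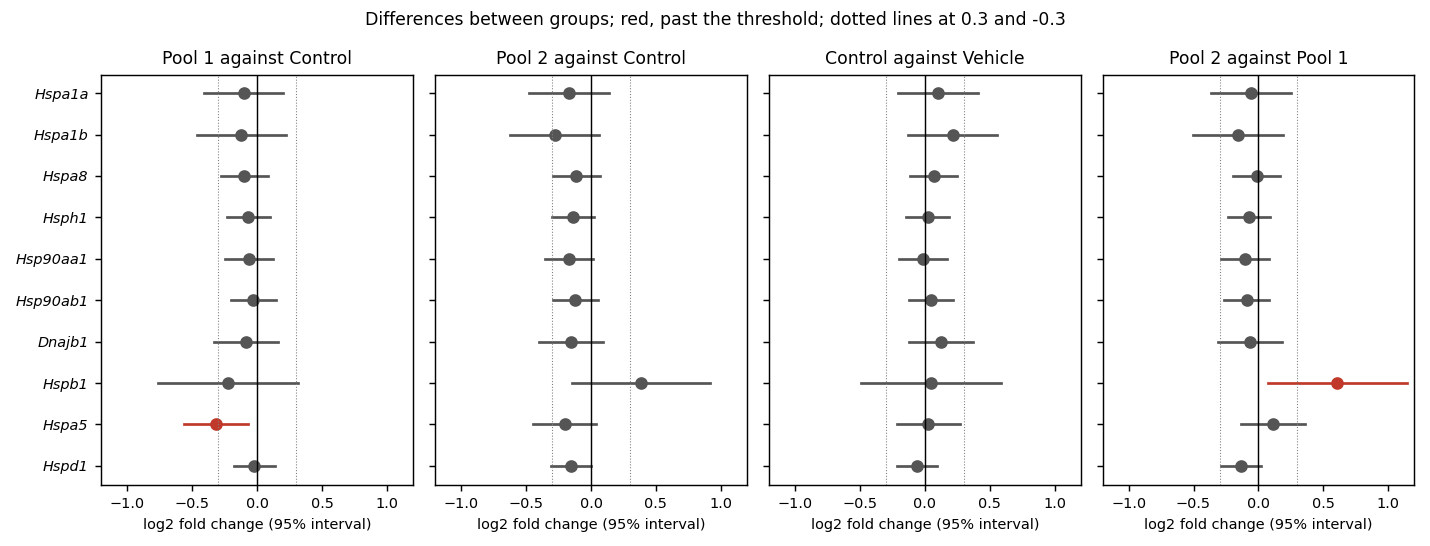
Log2 fold change (points) and its 95% interval (lines) of the 10 heat shock protein genes in the 4 comparisons, from edgeR, with 5 mice a group. Hspa5 in Pool 1 against Control (−0.32) and Hspb1 in Pool 2 against Pool 1 (0.61) are past the threshold, drawn in red, and the dotted lines mark 0.3 and −0.3.

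Fold changes against Control leaned to the negative side. All 10 members had a fold change below 0 in Pool 1, with a median log2 fold change of −0.09, and 9 of 10 in Pool 2, with a median of −0.15, where the medians of all genes were −0.01 and 0.00. Both comparisons share the 5 Control libraries, and the lean of Pool 1 rested on 1 of them. Without Control replicate 1, 5 of 10 members were below 0 in Pool 1, with a median of 0.00, while 9 of 10 remained below 0 in Pool 2, where the median was −0.08. In Control against Vehicle, 8 of 10 members were above 0 (median log2 fold change 0.05), and 3 of 10 without that library (median −0.02).

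**Figure D2:**
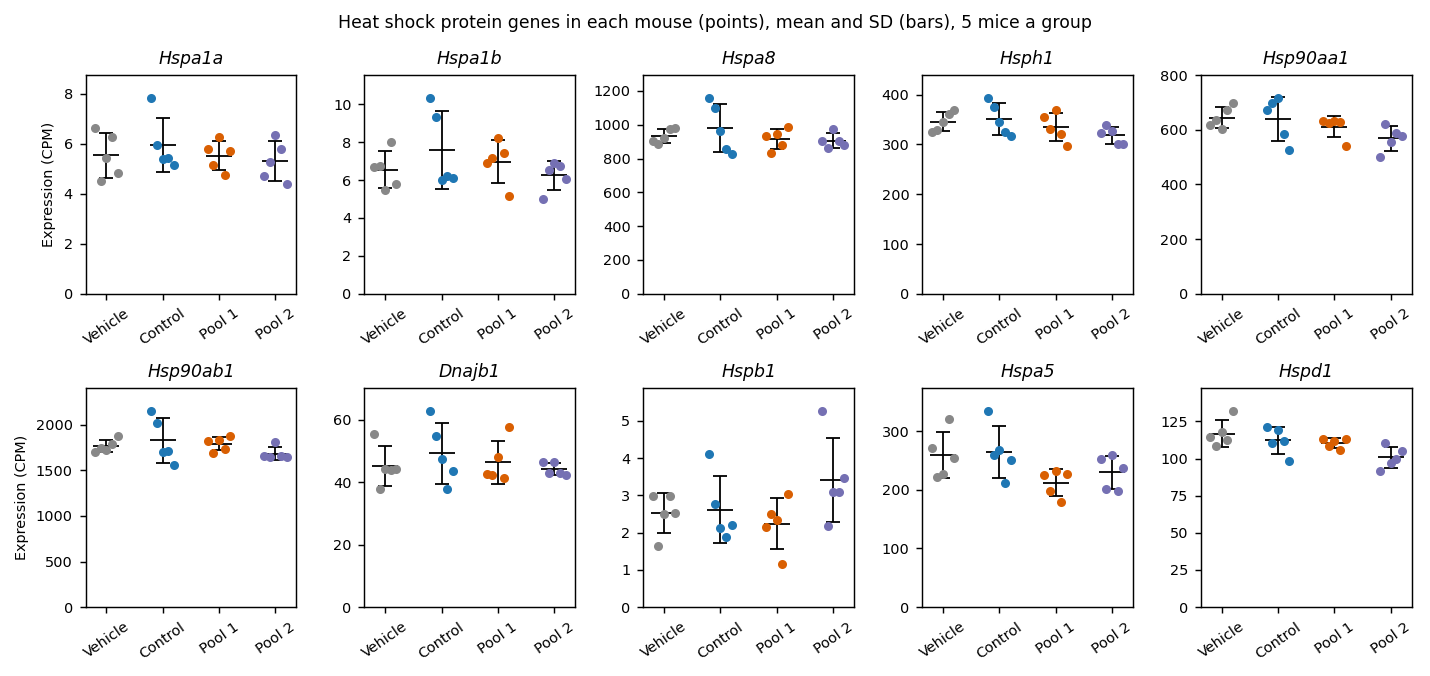
Expression in CPM of each member in each mouse (points), with the mean and SD of the 5 mice of a group (bars), on axes that start at 0. Control replicate 1 is the highest library for 7 of the 10 genes, and the groups overlap for all of them.

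Of the cytosolic HSP70 and HSP110 genes, 0 of 4 passed the threshold in any comparison. Hspa1b, the stress-inducible HSP70, had 6.699, 6.754, 5.491, 7.986 and 5.772 CPM in Vehicle mice. In Control mice its level was 10.33, 9.322, 5.984, 6.202 and 6.102 CPM. Pool 1 mice had 6.877, 7.173, 8.201, 7.455 and 5.149 CPM. Control replicates 1 and 2 thus stood above all other libraries, and the remaining Control mice lay among the others. In Pool 2 mice Hspa1b was at 4.982, 6.543, 6.917, 6.719 and 6.057 CPM, a difference of −17.7% from Control with a 95% interval of −35.1% to 4.44% (log2 fold change −0.28 ± 0.17 SE, edgeR, Benjamini-Hochberg adjusted p = 0.734). Without Control replicate 4 the same difference passed the threshold (log2 fold change −0.36, edgeR, Benjamini-Hochberg adjusted p = 0.497), and without Control replicate 1 it was −0.15.

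Hspa1a, the neighbouring gene that encodes a nearly identical HSP70, ranged from 4.503 to 6.615 CPM in Vehicle, 5.129 to 7.823 in Control, 4.740 to 6.260 in Pool 1 and 4.381 to 6.333 in Pool 2. The groups overlapped widely, and its log2 fold change was −0.11 in Pool 1 and −0.17 in Pool 2 against Control. Of the 50-base windows of their transcripts, 60.3% for Hspa1a and 62.3% for Hspa1b also occurred in another annotated gene, chiefly in each other, so that reads from these stretches cannot be given to one or the other. With their counts summed, the log2 fold change was −0.12 in Pool 1 (edgeR adjusted p = 0.97) and −0.23 in Pool 2 (edgeR adjusted p = 0.731).

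Hspa8, the constitutive HSC70 that also uncoats clathrin vesicles at synapses, had 906.7, 887.4, 923.2, 976.5 and 980.6 CPM in Vehicle mice and 1158, 1097, 963.2, 858.7 and 829.1 CPM in Control mice. Control held both the 2 highest and the lowest library. Pool 1 mice had 933.2, 830.6, 944.4, 882.9 and 985.2 CPM and Pool 2 mice 901.5, 865.0, 976.9, 906.7 and 881.7 CPM. The difference from Control was −6.72% in Pool 1 (95% interval −17.8% to 5.81%) and −7.62% in Pool 2 (−18.6% to 4.78%). Hsph1, an HSP110 that acts as nucleotide exchange factor for HSP70, spanned 297.3 to 393.2 CPM over all mice. Its log2 fold change was −0.07 in Pool 1 and −0.14 in Pool 2 (± 0.08 SE each).

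Neither HSP90 gene passed the threshold. Hsp90ab1, the constitutive cytosolic HSP90, had 2149 and 2024 CPM in Control replicates 1 and 2 and 1557 to 1715 CPM in the other 3 Control mice, while the 15 mice of the other groups lay between 1643 and 1877 CPM. Its difference from Control was −2.03% in Pool 1 (95% interval −13.0% to 10.3%) and −7.97% in Pool 2 (−18.3% to 3.65%). Hsp90aa1, the inducible form, ranged from 601.9 to 699.4 CPM in Vehicle, 524.4 to 716.3 in Control, 541.8 to 633.0 in Pool 1 and 499.9 to 620.8 in Pool 2. Its difference of Pool 2 from Control was −11.1%, with an interval of −21.7% to 0.906% (edgeR, Benjamini-Hochberg adjusted p = 0.683). Pool 2 replicate 1 lay below all Control mice, and the other 4 Pool 2 mice lay within the Control range. A share of 47.5% of the 50-base windows of Hsp90aa1 and 38.6% of those of Hspa8 also occurred in other annotated genes, mostly processed pseudogenes (Gm12346 with 37 to 80 counts and Gm15459 with 98 to 250 counts in a library).

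Hspb1 (HSP27 in humans), a small heat shock protein best known from glia, vessels and stressed neurons, was the member that differed between the pools. Its level was 2.144, 2.511, 2.329, 1.163 and 3.031 CPM in Pool 1 mice. Pool 2 mice had 5.256, 2.181, 3.083, 3.088 and 3.479 CPM. In 4 of 5 Pool 2 mice Hspb1 was above all Pool 1 mice, and Pool 2 replicate 2 lay within them. Vehicle mice had 2.991, 1.645, 2.503, 2.984 and 2.513 CPM and Control mice 4.113, 2.777, 2.117, 1.869 and 2.211 CPM. The difference of Pool 2 from Pool 1 was 52.4% (95% interval 5.13% to 121%, log2 fold change 0.61 ± 0.26 SE, edgeR, Benjamini-Hochberg adjusted p = 0.51).

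The Hspb1 difference rested on counts of 27 to 115 in a library and on single mice. It no longer passed the threshold without Pool 2 replicate 1 (log2 fold change 0.40) or without Pool 1 replicate 4 (0.44). Against Control, Hspb1 was at a log2 fold change of 0.38 ± 0.26 SE in Pool 2 (edgeR adjusted p = 0.778) and −0.23 ± 0.26 SE in Pool 1 (edgeR adjusted p = 0.969), and without Control replicate 1 the former was 0.60 and past the threshold. Pool 2 replicate 1, the library with the highest Hspb1, was also the highest in markers of microglia, of astrocytes (6 of 6 detected, 7377 CPM against 4538 to 6054 CPM elsewhere), of brain endothelium (6 of 6, 311.7 CPM against at most 260.9 CPM) and of blood (5 of 5, 181.7 CPM against at most 97.67 CPM). As deviations from the group means over the 20 libraries, Hspb1 had an r of 0.06 with astrocyte and 0.25 with microglia markers. With markers of brain endothelium and of blood it had an r of 0.55 and 0.59. The part of these cells in the difference was not tested. A processed pseudogene, Hsp25-ps1, shares 48.8% of the 50-base windows of Hspb1 and held 0 to 3 counts in a library.

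Dnajb1, the J protein that drives HSP70 under heat shock, did not pass the threshold in any comparison. Its range was 37.80 to 55.53 CPM in Vehicle, 37.77 to 62.72 in Control, 41.20 to 57.56 in Pool 1 and 42.31 to 46.37 in Pool 2. Pool 2 was thus the tightest group (CV 4.41%, against 14.2% to 19.8% in the others), although this spread was not tested. Its log2 fold change against Control was −0.09 in Pool 1 and −0.16 in Pool 2 (± 0.12 SE each).

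Hspa5 was the member that was lower in Pool 1 mice. Control mice had 333.7, 260.0, 267.0, 211.8 and 249.9 CPM. In Pool 1 mice its level was 224.6, 198.2, 232.2, 179.3 and 227.2 CPM. Every Pool 1 mouse was below 4 of the 5 Control mice, and Control replicate 4 lay inside the Pool 1 range. The difference of Pool 1 from Control was −19.7% for Hspa5 (95% interval −32.2% to −4.92%, log2 fold change −0.32 ± 0.12 SE, edgeR, Benjamini-Hochberg adjusted p = 0.917). Vehicle mice had 271.0, 222.4, 226.9, 321.1 and 254.9 CPM, and Pool 2 mice 253.0, 201.9, 258.7, 197.6 and 237.1 CPM. Pool 2 lay between Pool 1 and Control and overlapped both, with a difference of −13.2% from Control (interval −26.7% to 2.82%) and of 8.16% from Pool 1 (interval −8.67% to 28.1%).

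The call of Hspa5 depended on single mice. Leaving out each of the 10 mice in turn gave log2 fold changes of −0.39 to −0.22, with 7 of 10 fits past the threshold. It was lost without Control replicate 1 (−0.22), without Pool 1 replicate 2 (−0.29) and without Pool 1 replicate 4 (−0.26). The unadjusted p in edgeR was 0.0667 in the first of these fits. In the other fits it was 0.0314 and 0.0458, and only the size fell short. As deviations from the group means over the 20 libraries, Hspa5 had an r of 0.51 with choroid plexus markers and −0.63 with thalamus markers. Vehicle replicate 4, the library with the highest sum of choroid plexus markers, had the highest Hspa5 of its group. In Control the highest sum was in replicate 3 and the highest Hspa5 in replicate 1. All 6 choroid plexus markers were below 0 in Pool 1 against Control (median log2 fold change −1.49, sums of 105.0 to 292.4 CPM in Pool 1 and 116.1 to 2287 CPM in Control). All 6 were below 0 in Control against Vehicle (median −1.71), where Hspa5 was at 0.03. The part of choroid plexus or thalamus in the Hspa5 difference was not tested.

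Other genes of the endoplasmic reticulum were measured beside Hspa5 in a list of 26 chaperones, folding enzymes and unfolded protein response genes. In Pool 1 against Control, 3 of 26 passed the threshold as lower and 0 as higher (beside 1.99% and 1.48% of all genes), and 22 of 26 were below 0 (median log2 fold change −0.14, against −0.01 over all genes). The 3 were Manf, a secreted factor released under stress of the endoplasmic reticulum (log2 fold change −0.37), Creld2, a stress-inducible protein of the same compartment (−0.36), and the disulfide isomerase Pdia4 (−0.32). Without Control replicate 1, none of these 3 passed, a J protein of the compartment, Dnajb9, passed instead (−0.31), and 20 of 26 were below 0, with a median of −0.12. With each of the 10 mice left out in turn, Creld2 passed in 9 fits, Manf in 8 and Pdia4 in 7. In Pool 2 against Control 0 of 26 passed, and again 22 of 26 were below 0, with a median of −0.08. In Control against Vehicle 18 of 26 were above 0 (median 0.05), and these comparisons share the Control mice. Without Control replicate 1, 18 of 26 were below 0 in Pool 2 and 13 of 26 above 0 in Control against Vehicle. Without Pool 2 replicate 1, Creld2 (−0.33) and the stress-response transcription factor Atf4 (−0.31) passed as lower in Pool 2 against Control, with a median of −0.11. The study lists Creld2 as lower in both pools at the same threshold. Here it passed in Pool 2 in 2 of 10 fits with 1 mouse left out, and not with all libraries.

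Pdia4 showed the pattern of Hspa5 mouse by mouse. It was at 57.71, 50.06, 41.15, 37.69 and 43.69 CPM in Control and 39.65, 33.94, 36.25, 35.90 and 39.04 CPM in Pool 1, so that 4 of 5 Control mice were above all Pool 1 mice. Hsp90b1 (GRP94), the HSP90 of the endoplasmic reticulum, is named here after its values were seen. Its level was 331.9, 289.0, 305.5, 280.9 and 285.9 CPM in Control and 273.3, 245.4, 250.4, 253.8 and 214.3 CPM in Pool 1. The log2 fold change of Hsp90b1, −0.27 ± 0.08 SE, was smaller than the threshold asks. The stress-induced transcription factor Ddit3 (CHOP) was at −0.13 ± 0.14 SE.

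Hspd1 had the smallest spread among mice of the 10 members, with a within-group SD of 0.10 on the log2 scale. It ranged from 108.5 to 131.8 CPM in Vehicle, 98.39 to 121.2 in Control, 105.8 to 113.5 in Pool 1 and 91.86 to 110.2 in Pool 2. Its difference from Control was −1.48% in Pool 1 (95% interval −11.5% to 9.69%) and −10.1% in Pool 2 (−19.3% to 0.0552%, edgeR, Benjamini-Hochberg adjusted p = 0.651). Pool 2 mice were mostly at the lower end, with Pool 2 replicate 1 lowest. Of 11 other mitochondrial chaperone and protease genes, 0 passed in each of the 4 comparisons with all libraries. Hspe1, the HSP10 partner of Hspd1, was at −0.29 in Pool 1 against Control and passed in 5 of 10 fits with 1 mouse left out. A pseudogene, Hspd1-ps3, shares 38.0% of its 50-base windows and held 4 to 15 counts in a library.

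Among the other cytosolic HSP70, HSP110 and small heat shock protein genes, 14 of 15 were measured, and 4 of them were higher in Pool 2 than in Pool 1, with 0 lower (beside 5.66% and 1.16% of all genes). Hspb8, a small heat shock protein that works with the co-chaperone Bag3, had the smallest p (log2 fold change 0.52 ± 0.16 SE, edgeR, Benjamini-Hochberg adjusted p = 0.2995). It was at 18.14, 12.27, 20.04, 20.70 and 18.99 CPM in Pool 2 and 13.88, 8.249, 12.33, 12.76 and 15.74 CPM in Pool 1. As for Hspb1, 4 of 5 Pool 2 mice were above all Pool 1 mice, and Pool 2 replicate 2 was the exception. The small heat shock protein gene Hspb6 (0.50) and Hspa12b, a distant HSP70 relative known from endothelium (0.38), were also among the 4, with Hspb11, which despite its name encodes a component of intraflagellar transport (0.35). Without Pool 2 replicate 1, 1 of 14 was higher, Hspb8, which passed in all 10 fits with 1 mouse left out. Hspa12b passed in 8 of these fits, Hspb6 in 7 and Hspb11 in 5. Markers of several other cells moved the same way in this comparison: microglia (7 of 7 above 0, 5 past the threshold), thalamus (6 of 6, 4 past), blood (5 of 5, 3 past) and astrocytes (6 of 6, 2 past). Those of brain endothelium (1 past), dentate granule cells and oligodendrocytes were above 0 in 6 of 6 genes each, and of choroid plexus in 5 of 6 (1 past). Markers of CA1 (median −0.41) and of CA3 and CA2 pyramidal neurons (median −0.11) went the other way, 6 of 6 below 0 each. Their part was not tested.

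Hspa12b was also higher in Pool 2 than in Control (1 of 14 genes, beside 5.2% of all genes, log2 fold change 0.49 ± 0.16 SE, edgeR, Benjamini-Hochberg adjusted p = 0.482). Pool 2 mice had 8.272, 7.205, 7.375, 7.261 and 6.916 CPM. Control mice had 2.946 to 6.393 CPM, Pool 1 mice 5.096 to 6.769 CPM, and Vehicle mice reached 7.308 CPM. Markers of brain endothelium were above 0 in 6 of 6 genes in Pool 2 against Control (sums of 229.7 to 311.7 CPM in Pool 2 and 160.2 to 260.1 CPM in Control), and their part in the difference was not tested. In Pool 1 against Control, Hspb11 was lower (log2 fold change −0.36), and in Control against Vehicle it was higher (0.40). With 1 mouse left out, the first call passed in 5 of 10 fits and the second in 9 of 10. These share the Control mice, which had 6.951 to 10.08 CPM.

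Of 17 co-chaperones of HSP70 and HSP90, 1 passed the threshold in any comparison. Bag3, a nucleotide exchange factor of selective autophagy, was higher in Pool 2 than in Control (log2 fold change 0.40 ± 0.18 SE, edgeR, Benjamini-Hochberg adjusted p = 0.625), with 18.51 CPM in Pool 2 replicate 1 and 9.598 to 12.96 CPM in the other Pool 2 mice. This call passed in 5 of 10 fits with 1 mouse left out, and was at 0.21 without Pool 2 replicate 1 (beside it, 5.2% of all genes were higher). Of 15 other J proteins and 7 heat shock factor genes, 0 passed in any comparison with all libraries. Against Control, 9 of 15 J proteins were below 0 in Pool 1 and 14 of 15 in Pool 2. In Pool 2, 4 of these 15 had an unadjusted p under 0.05 in edgeR, beside 1939 of all 25190 genes. Of the co-chaperones, 13 of 17 were below 0 in either pool against Control and 15 of 17 above 0 in Control against Vehicle. Leaving out Control replicate 1 gave 9 of 17, 12 of 17 and 9 of 17 in this order. Without Control replicate 1, Hsf4 passed as higher in Pool 1 (0.33) and in Pool 2 (0.46) against Control, as did Hsf5 in Pool 2 (0.91) without Control replicate 4. Hsf1 itself was at a log2 fold change of −0.04 in Pool 1 and 0.07 in Pool 2 (± 0.10 SE each). Of 14 subunits of the cytosolic chaperonin TRiC and of prefoldin, 14 were below 0 in either pool against Control and above 0 in Control against Vehicle, comparisons that share the Control mice. The prefoldin subunits Pfdn4 (0.30) and Pfdn5 (0.39) passed in the last one (beside 1.7% of all genes), and 0 of 14 passed in the others. This rested in part on Control replicate 1, without which 10 of 14 were below 0 in Pool 1, 13 of 14 in Pool 2 and 2 of 14 in Control against Vehicle, and neither prefoldin subunit passed. With each mouse left out in turn, Pfdn4 passed in 5 of 10 fits and Pfdn5 in 7 of 10.

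**Figure D3:**
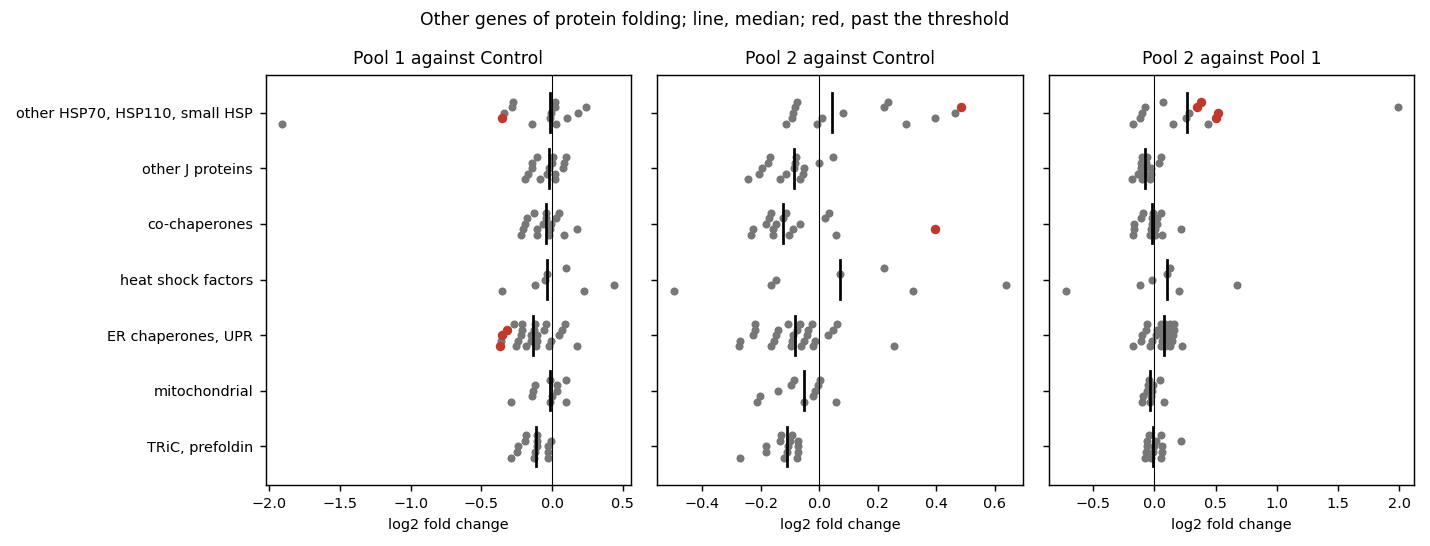
Log2 fold changes of the other genes of protein folding by list (points, 1 per gene, spread vertically for legibility), with the median of each list (line) and genes past the threshold in red, in 3 comparisons with unequal horizontal scales. The endoplasmic reticulum genes have a median of −0.14 in Pool 1 and −0.08 in Pool 2 against Control. In Pool 2 against Pool 1, 4 of the other HSP70, HSP110 and small heat shock protein genes are past the threshold.

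Levels of most pairs of members were positively correlated within the groups. As deviations from the group means of log2 CPM over the 20 libraries, which share normalization, 44 of 45 pairs of members had a Pearson r above 0, 22 had at least 0.5, and the median was 0.48. Hspa8 and Hsp90ab1, the constitutive HSP70 and HSP90, had the highest r, 0.94, followed by Hspb1 and Hspa5 with 0.75 and Hspa8 and Dnajb1 with 0.74. Hsp90aa1 and Hspb1 were the exception (−0.17). Hspd1 followed the others least, with a median r of 0.26. Pairs of other genes were not counted in the same way. No r was taken without Control replicates 1 and 2, which stood highest on average over the members.

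Control mice lay at both ends. Control replicate 1 was on average 2.01 SDs above the mean of a member and was the highest of 20 libraries for 7 of 10 members, with Control replicate 2 at 1.10 SDs. At the other end, Control replicate 5 was at −0.83 SDs. The Control mice accordingly had the widest spread for Hspa8 (CV 14.7%, against 4.48% to 6.53% in the other groups) and Hsp90ab1 (13.5%, against 3.77% to 4.42%).

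**Figure D4:**
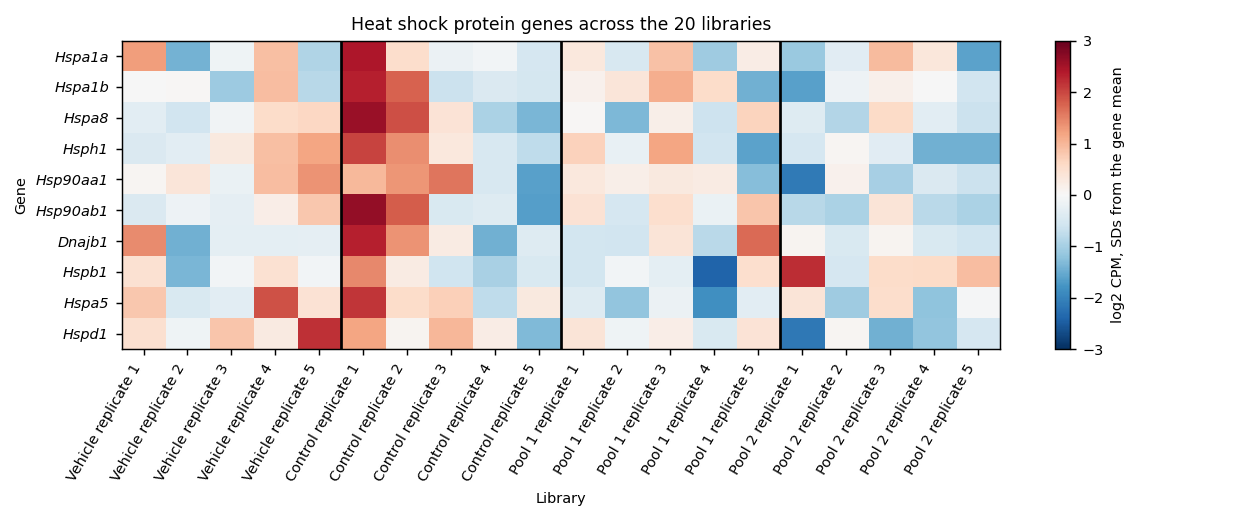
Level of each member (rows) in each library (columns) in SDs of log2 CPM from the mean of the gene, red above and blue below it, with black lines between the groups. Control replicate 1 is red throughout, with a mean of 2.01 SDs over the 10 genes, and Pool 2 replicate 1 is the lowest library for 3 members and the highest for Hspb1.

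The genes most like the members were sought among 14787 others with a mean of at least 1 CPM, by Pearson r of deviations from the group means over the 20 libraries. The highest r with the mean of the members was that of Stip1 (0.91), the co-chaperone HOP that links HSP70 to HSP90. It had 180.1 CPM in Control replicate 1 and 127.0 to 156.9 CPM in all other mice. Pqlc1 (0.87), Ccdc92 and Ppp1r21 (0.85 each), Igfbp3 (0.84), Tdrp and Abcf1 (0.83 each) and Gnas (0.82) came next. For Hspa5 alone the order was Tmem205 (0.91), Pdia6 (0.89), Tmem208 (0.87), Ormdl3 (0.86), Dnaja4 and Pdia4 (0.84 each), Slc25a29 (0.83) and Sdf2l1 (0.82), of which Pdia6, Pdia4 and Sdf2l1 encode folding factors of the endoplasmic reticulum.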

How the data were processed

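The authors selected poly(A) RNA of mouse hippocampus for stranded libraries and aligned 50-base single-end reads to mm10 with STAR. They deposited raw counts per gene for 25190 genes (those with a summed count of at least 10), with the sequencing rounds of a library already summed. GeneCounts of STAR takes reads with a single alignment, so reads that fit several genes equally were left out of the counts.

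Libraries were grouped by their labels. TMM factors scaled the counts, and edgeR 4.0.16 (glmQLFit with robust estimation, then glmQLFTest, in R 4.3.3) tested them in 1 fit of 4 groups and 20 libraries, with Benjamini-Hochberg adjustment over all genes. CPM used the TMM factors, log2 CPM a prior count of 2, and TPM exon lengths from GENCODE M21, which covered 99.8% of the genes. Fits were tested on simulated counts. p-values set a difference between groups against a spread between mice that was estimated over all 4 groups together. Correlations are descriptions. No 2 libraries of a group agreed within sampling noise (chi-square of at least 8.22 per degree of freedom).

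Members and gene lists were chosen with earlier results of these data known. Named beside the members are up to 3 genes of a list with the smallest p past the threshold in a comparison and direction, and the 8 genes most alike in pattern. Stip1's mouse values, Hsp90b1, Ddit3, Hsf1, Hspb11, Dnajb9, Atf4, Hspe1, Hsf4, Hsf5, Egr2, Cirbp and Cdkn1a beyond this rule were picked after their values were seen. Alternatives were DESeq2 1.42.0, edgeR with DESeq2 size factors, a minimum of 10 for the mean normalized count, filterByExpr, the default spread estimate, fits of the 2 groups alone, a block for the replicate number, 18 libraries, each library left out, and, added after seeing the data, the summed counts of Hspa1a and Hspa1b.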

Additional observations from a re-analysis of the deposited data

Results flagged for a closer look

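Hspb1 differed between the pools in the test of the difference itself, with a log2 fold change of 0.61 in Pool 2 against Pool 1, while its fold changes against the shared Control mice had opposite signs.

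Single mice stood apart from their group in 2 of 40 groups tested, and chance flags about 1 in 20. Hsp90aa1 was at 541.8 CPM in Pool 1 replicate 5, where the other 4 mice had 624.2 to 633.0 CPM. Hsp90ab1 was at 1817 CPM in Pool 2 replicate 3, where the other 4 mice had 1643 to 1662 CPM.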

How the results depend on the processing

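Of 328 comparisons of a member with another setting, 323 kept their direction and side of the threshold. With only the 2 groups compared, 0 members passed in Pool 1 against Control. Hspa5 was then at −0.30 when rounded, just short of the size asked, with an unadjusted p of 0.0205 in edgeR. With 18 libraries (without Pool 2 replicate 1 and Vehicle replicate 4) 0 passed in Pool 2 against Pool 1 (Hspb1 at 0.40). The cause was not tested. Hsp90aa1 in Control against Vehicle, near 0 at −0.01, turned to 0.0088 with filterByExpr, 2e-04 with only the 2 groups and 0.0025 with 18 libraries.

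Filters on low counts, under which fewer genes are tested, lowered the number of genes past the threshold. At a mean normalized count of 10 it was 402 in Pool 1 against Control, 969 in Pool 2 against Control, 795 in Control against Vehicle and 1133 in Pool 2 against Pool 1, from 876, 1566, 1285 and 1718. With filterByExpr the first 3 were 426, 960 and 821.

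Leaving out 1 library at a time, 369 of 400 kept direction and side, 24 changed sign, none of them past the threshold, and 0 to 1 members passed in every comparison except Control against Vehicle (0 in each fit). Genes past the threshold ranged from 717 to 1249, 1129 to 1818, 955 to 1792 and 1190 to 2067 in the order above. Log2 fold changes that changed sign ranged, in Pool 1 against Control, from −0.1543 to 0.0118 (Hspa1a), −0.1971 to 0.0118 (Hspa1b), −0.0824 to 0.0348 (Hsp90ab1), −0.1768 to 0.0148 (Dnajb1) and −0.0653 to 0.0075 (Hspd1). In Control against Vehicle they ranged from −0.0132 to 0.1839 (Hspa1a), −0.0218 to 0.0574 (Hsph1), −0.0563 to 0.0512 (Hsp90aa1), −0.0152 to 0.102 (Hsp90ab1), −0.1709 to 0.1586 (Hspb1) and −0.0688 to 0.1174 (Hspa5). In Pool 2 against Pool 1 they ranged from −0.1327 to 5e-04 (Hspa1a), −0.0471 to 0.0137 (Hspa8) and −0.1079 to 0.0218 (Dnajb1).

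The replicate numbers share no animal, and deviations of libraries with the same number had r of −0.381 to 0.301, so that they do not pair the mice (2 of 20 libraries were most like one of their own number). With the replicate number as a block, 1, 0, 0 and 1 members passed, as without it, and 759, 1410, 1053 and 1552 genes.

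At 27 to 115 counts per library, Hspb1 is the member whose value depth limits most, with a counting SD of 0.18 on the log2 scale beside a within-group SD of 0.43.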

Other observations

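Genes of other stress responses were also read. Of 11 immediate early genes, 10 glucocorticoid-responsive genes and 2 cold-inducible RNA-binding protein genes, 0 passed the threshold in each of the 4 comparisons with edgeR, while 1 glucocorticoid-responsive gene had an unadjusted p under 0.05 in Control against Vehicle and 1 in Pool 2 against Pool 1, and 1 cold-inducible gene in Control against Vehicle. With single libraries left out, 3 genes passed: without Pool 2 replicate 1, Egr2 (−1.58) and Cirbp (0.31) in Pool 2 against Control, and without Pool 2 replicate 5, Cdkn1a (0.43) in Pool 2 against Pool 1. Cirbp also passed in Pool 2 against Control without Control replicate 5 (0.32). As deviations from the group means over the 20 libraries, which share normalization, the mean of the heat shock protein genes had an r of 0.84 with the mean of 17 co-chaperone genes, 0.45 with the immediate early genes and −0.12 with the cold-inducible genes. Hspa5 had its highest r, 0.87, with the 26 endoplasmic reticulum genes, 0.51 with choroid plexus markers and −0.63 with thalamus markers. For Hspb1, r was 0.75 with the immediate early genes, 0.59 with blood markers and 0.55 with markers of brain endothelium. Its r was 0.25 with microglia markers and 0.06 with astrocyte markers.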
